A study of Mus musculus with 4 samples.

Results

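The 34 genes of autophagy and LC3-associated phagocytosis were measured in bone marrow (BM) macrophages that had or had not engulfed apoptotic prostate cancer cells. The genes were chosen by name, and each of the 34 symbols matched 1 of the 31053 genes counted. All 34 passed the filter on low counts, which left 13869 genes in the test. The macrophages came from the bone marrow of male C57BL/6J mice, 4 to 6 weeks old in the general methods and 4 weeks old where the single-cell experiment is described, and were grown with the macrophage growth factor M-CSF. Macrophages were co-cultured for 16 to 18 hours with apoptotic RM1 cells, a mouse prostate cancer line killed with UV light and stained with the dye CFSE. Cells that carried the macrophage surface protein F4/80 and the dye were sorted as efferocytic, and cells with F4/80 alone as non-efferocytic. The sources do not settle whether the non-efferocytic cells came from the same dishes, and so met apoptotic cells too, or from macrophages cultured alone. All macrophages were cultured, and no group was taken straight from bone. Each of 2 experiments gave 1 single-cell library per group, 4 libraries in all, and the number of mice per library is not given in the sources used here, which name a minimum of 3 mice a group for macrophage experiments in general.

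Between 6695 and 13411 cells per library were kept, with 101216659 to 155224183 unique molecular identifiers (UMIs, 1 per captured RNA molecule) in cells. The 10 macrophage markers, Adgre1 (which encodes F4/80) among them, were all detected in every library and summed to 36902 and 31718 UMIs per 1000000 (CPM) in the non-efferocytic and 29489 and 22107 CPM in the efferocytic libraries of Experiments 1 and 2. More UMIs were captured per efferocytic cell, with a mean of 18670 and 18462 UMIs per cell against 12224 and 10316 in non-efferocytic cells. The 10 neutrophil markers summed to 3047 and 3340 CPM in the non-efferocytic and to 953 and 705 CPM in the efferocytic libraries, with no marker at 0. The fibroblast markers summed to 146 and 122 CPM in the non-efferocytic and to 46.7 and 53.0 CPM in the efferocytic libraries, and the epithelial, B cell, T cell and dendritic cell markers to under 10 CPM each in every library. In Experiment 2 the non-efferocytic library had 36048 barcodes with 500 to 999 UMIs, far more than the 1048 to 2046 of the other libraries, and it shared 118 cell barcodes with its efferocytic partner, where 16.6 would be shared by chance and other pairs shared 14 to 23. RNA of engulfed RM1 cells is mouse RNA and cannot be told apart from the macrophage's own.

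Autophagy wraps cytoplasm, damaged organelles or protein aggregates in a double membrane and delivers them to the lysosome. The ULK1 kinase complex starts the process, a class III phosphatidylinositol 3-kinase (PI3-kinase) marks the growing membrane, ATG2, ATG9 and WIPI proteins supply it with lipid, and the conjugation enzymes attach LC3 and GABARAP proteins (the ATG8 family) to it, to which receptors such as p62 (Sqstm1) bind their cargo. In LC3-associated phagocytosis, by which macrophages process engulfed dead cells, LC3 is attached by much of the same conjugation machinery to the single membrane of a phagosome. That route needs Rubicon, the class III PI3-kinase and the NADPH oxidase NOX2, and runs without the ULK1 complex.

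Upstream sequences are shown for Ulk1, which had the largest fold change of the 34 on the scale of the main test. They are also shown for the 6 genes, of those searched, that hold one of 2 motifs in a stretch before the annotated gene. Both motifs are tied to this pathway in other settings. CACGTG, an E-box, is the core of the element bound by the lysosomal and autophagy factors TFEB, TFE3 and MITF, and TGACNNNGC is the core of the antioxidant response element bound by NRF2. The sequences are RefSeq promoters on GRCm38, each written 5′ to 3′ on the strand of the gene, with motif matches in capitals. The Ulk1 stretch is chr5:110810098-110810331 on the minus strand and stops at the edge of the annotated gene. Those of Atg3 and Atg5, which conjugate LC3, are chr16:45158579-45158784 and chr10:44268089-44268338 on the plus strand. Those of Atg13, a subunit of the ULK1 complex, and of Vmp1, a membrane protein that lets the isolation membrane form, are chr2:91710593-91710842 and chr11:86683837-86684086 on the minus strand. Those of Ulk2, a kinase related to Ulk1, and of Rab5a, a GTPase of early endosomes, are chr11:61855093-61855342 on the minus strand and chr17:53478984-53479233 on the plus strand.
Ulk1: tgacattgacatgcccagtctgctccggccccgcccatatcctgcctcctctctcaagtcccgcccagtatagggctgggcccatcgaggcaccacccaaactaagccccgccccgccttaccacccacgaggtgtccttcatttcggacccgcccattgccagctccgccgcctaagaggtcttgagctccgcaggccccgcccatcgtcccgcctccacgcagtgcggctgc
Atg3: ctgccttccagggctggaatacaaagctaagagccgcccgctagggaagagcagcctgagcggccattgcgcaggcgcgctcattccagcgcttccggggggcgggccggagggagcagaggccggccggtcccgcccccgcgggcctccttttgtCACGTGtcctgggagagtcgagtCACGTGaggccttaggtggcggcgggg
Atg5: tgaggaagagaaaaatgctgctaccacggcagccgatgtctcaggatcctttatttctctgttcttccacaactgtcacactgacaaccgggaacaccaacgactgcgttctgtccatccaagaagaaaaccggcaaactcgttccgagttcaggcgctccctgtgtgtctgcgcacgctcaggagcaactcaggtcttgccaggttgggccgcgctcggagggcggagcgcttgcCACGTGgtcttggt
Atg13: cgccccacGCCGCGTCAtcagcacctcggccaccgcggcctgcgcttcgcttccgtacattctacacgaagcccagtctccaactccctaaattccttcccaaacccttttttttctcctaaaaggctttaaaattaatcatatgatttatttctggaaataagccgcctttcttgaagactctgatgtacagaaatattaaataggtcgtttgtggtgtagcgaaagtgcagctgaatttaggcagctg
Vmp1: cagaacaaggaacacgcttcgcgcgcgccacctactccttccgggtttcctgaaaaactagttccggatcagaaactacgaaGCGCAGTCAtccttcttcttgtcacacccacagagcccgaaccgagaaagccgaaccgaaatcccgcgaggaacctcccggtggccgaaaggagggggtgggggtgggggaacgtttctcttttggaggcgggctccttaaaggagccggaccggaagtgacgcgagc
Ulk2: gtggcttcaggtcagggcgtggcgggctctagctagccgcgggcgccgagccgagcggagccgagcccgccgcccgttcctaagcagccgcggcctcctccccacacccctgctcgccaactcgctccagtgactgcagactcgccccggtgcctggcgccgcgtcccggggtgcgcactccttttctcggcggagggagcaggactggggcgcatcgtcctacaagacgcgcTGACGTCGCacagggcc
Rab5a: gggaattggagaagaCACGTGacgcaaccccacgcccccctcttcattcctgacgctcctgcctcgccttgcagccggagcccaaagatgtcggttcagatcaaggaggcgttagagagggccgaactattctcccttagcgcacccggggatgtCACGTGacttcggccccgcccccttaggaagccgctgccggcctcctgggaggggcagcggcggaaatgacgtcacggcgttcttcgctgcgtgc
Of the 34 genes, 28 had a RefSeq promoter in the reference, and the 250 bases before each start were searched on both strands; the 2 motifs do not overlap. An E-box stood upstream of 4 of the 28, Atg3, Atg5, Atg7 and Rab5a, or 14.3%, against 6.86% of all genes with a promoter and 6.02% of all promoters of that length. Atg3 held 2, at 94 and 71 bases before its start, and Atg5 held 1 at 14 bases. The antioxidant core stood upstream of 5, Atg13, Tax1bp1, Rab7, Ulk2 and Vmp1, or 17.9%, against 11.5% of all genes and 10.2% of all promoters. Among the genes called higher in efferocytic macrophages (below, by the test of RNA), 2 of the 7 searched held an E-box and 4 the antioxidant core. Among the 6 searched that were called lower, 0 and 1 did. Vmp1, Tax1bp1 and Rab7 have more than 1 promoter in the reference, which gives more letters to match. The matching stretches of Tax1bp1, Rab7 and Atg7 lay wholly inside the annotated gene, before a start within it, and the stretches before the Tax1bp1 and Rab7 genes held neither motif. With stretches wholly inside a gene left out, 23 of the genes had a stretch, of which 3 (13.0%) had an E-box and 3 the antioxidant core, against 6.96% and 11.1% of the 16790 genes with such a stretch among those matched to the annotation by symbol. The core then stood upstream of 2 of the 7 genes called higher and of 1 gene called lower, Ulk2. Atg14, 1 of the 6 called lower, had no stretch left. Ulk1 held neither motif in this window. These are matches of letters only.

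The comparison of efferocytic with non-efferocytic macrophages asked which steps of the pathway differ after engulfment. The main test used TMM scaling (the trimmed mean of M values, which sets each gene against the bulk of the other genes and differs from a plain share of all UMIs). On that scale the genes moved in both directions, also within one complex. Ulk1, the kinase that starts autophagy, its relative Ulk2, its partner Rb1cc1 (FIP200) and the PI3-kinase subunit Atg14 were lower in efferocytic macrophages, while the late endosome GTPase Rab7, Vmp1, the receptor Optn and the ULK1 complex subunit Atg13 were higher. In all, 8 of the 34 genes were higher and 8 were lower (edgeR quasi-likelihood test, experiment as block, Benjamini-Hochberg adjusted p under 0.05 over all genes tested), 23.5% in each direction. Of all genes tested, 19.9% were higher and 19% were lower, so the counts for the whole set are close to the background. The median log2 fold change was -0.01 over the 34 genes and -0.02 over all genes. In CPM, without TMM, the libraries of the 2 groups did not overlap for 27 of the 34 genes, where 66.9% of all genes tested did not overlap. The CPM ratio had the same sign in both experiments for 30 of the 34, or 88.2%, where 80.1% of all genes did. With the 2 groups scaled to library totals, which gives shares of all UMIs, 4 genes were higher and 12 lower, where 13.3% and 26.7% of all genes were. Counted per cell 20 were higher and 0 were lower, where 49.9% and 4.23% of all genes were, and all 34 fold changes were above 0; these scalings moved the median of all genes to -0.12 and 0.60. Without experiment as a block Optn, Rab7 and Atg14 alone of the 34 were called (9.27% of all genes higher and 7.74% lower), and with 10% free RNA removed Optn, Vmp1, Rab7, Ulk1, Rb1cc1 and Atg14 (10.5% and 8.16%). Without either non-efferocytic library, 0 of the 34 genes were called by edgeR (and of all genes 2 without that of Experiment 1 and 0 without that of Experiment 2, where 2999 and 3494 had an unadjusted p under 0.05), and without an efferocytic library 2 higher and 6 lower (Experiment 1 left out, with 11.5% and 8.86% of all genes) or 1 higher and 0 lower (Experiment 2 left out, with 4.44% and 4.04%).

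**Figure D1:**
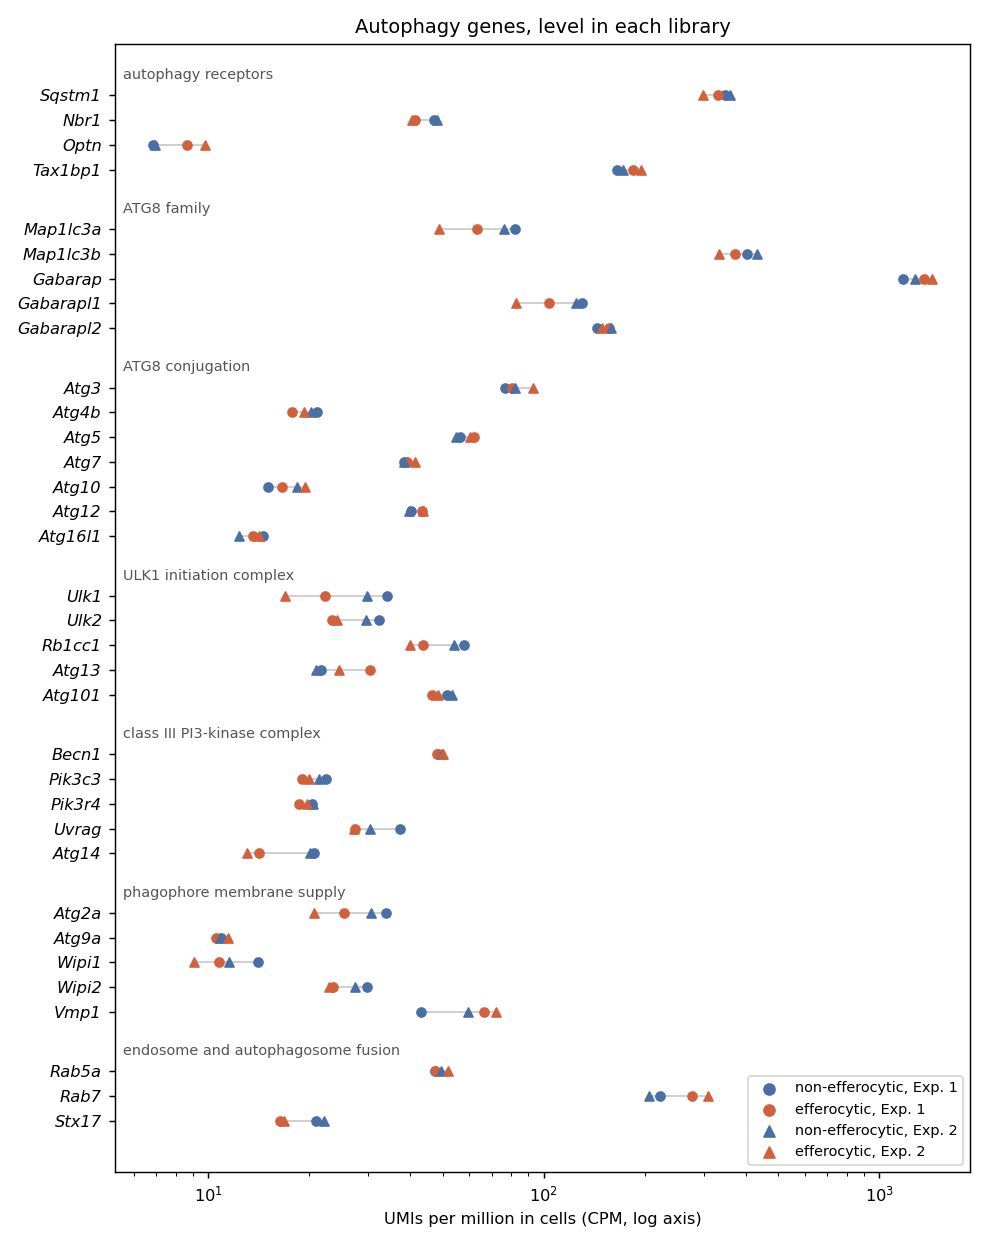
Level of each of the 34 genes in each library, in CPM on a log axis, grouped by role, with circles for Experiment 1 and triangles for Experiment 2. The efferocytic points of Ulk1, Atg14 and Rb1cc1 lie left of both non-efferocytic points and those of Rab7 and Vmp1 right of them, while the points of Becn1 and Gabarapl2 overlap.

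**Figure D2:**
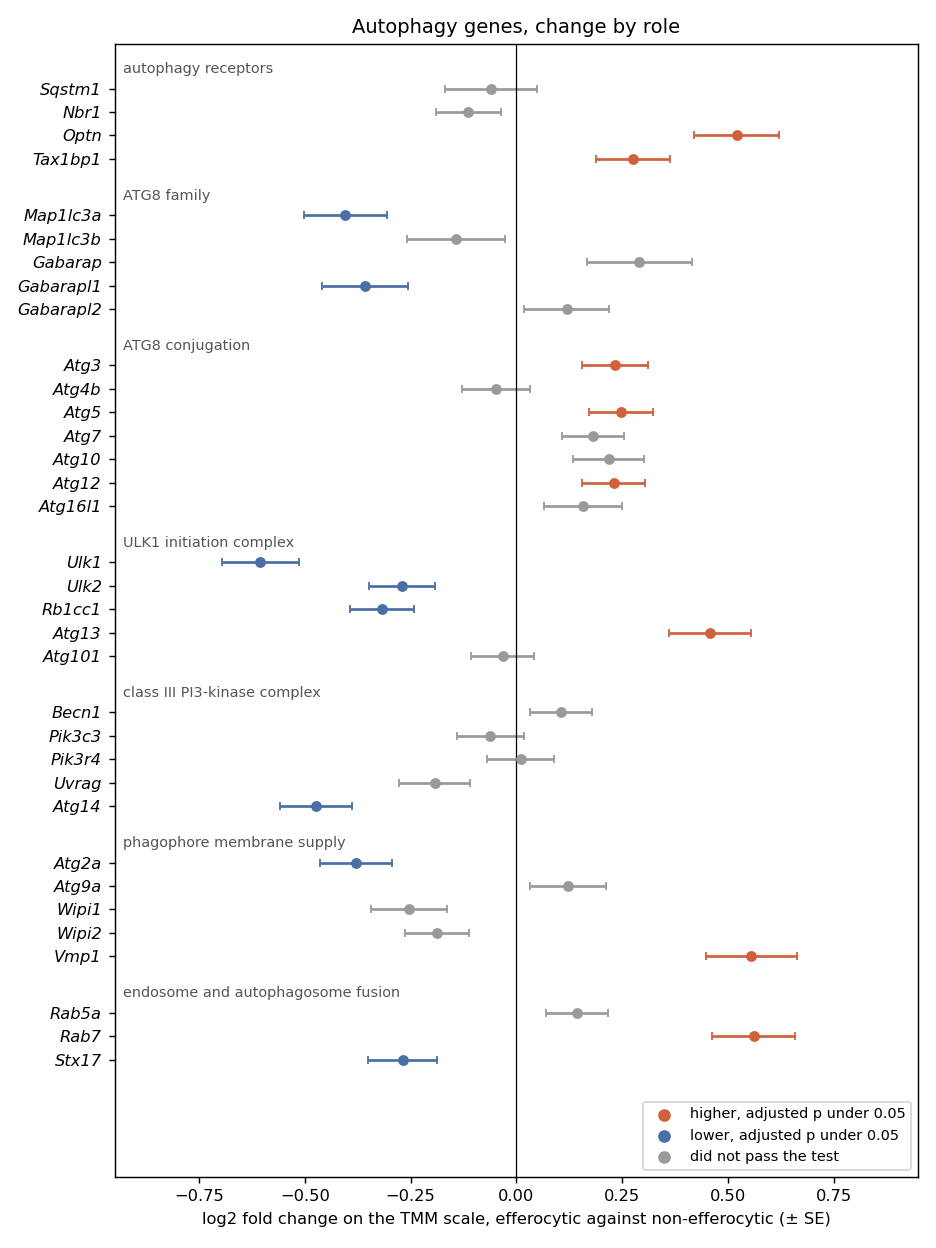
Log2 fold change of each of the 34 genes on the TMM scale, with its standard error, efferocytic against non-efferocytic, by role. The values run from -0.61 for Ulk1 to 0.56 for Rab7, and the 8 genes in orange and 8 in blue passed the test. Counted per cell over every barcode kept, none of the blue genes was called lower.

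The ULK1 initiation complex held the largest fall. Ulk1 stood at 34.1 and 29.8 CPM in the non-efferocytic and at 22.3 and 17.0 CPM in the efferocytic libraries of Experiments 1 and 2. Both efferocytic values lay below both non-efferocytic values, and the log2 fold change was -0.61 (SE 0.09, adjusted p = 0.0019), or -0.37 without the efferocytic library of Experiment 2. Rb1cc1, the scaffold of the complex, and Ulk2, a second kinase of the same family, were lower by smaller amounts, at log2 fold changes of -0.32 and -0.27, and Rb1cc1 was at -0.21 without that library. Atg13, which joins the kinase to the scaffold, moved the other way, from 21.8 to 30.3 CPM in Experiment 1 and from 20.9 to 24.5 CPM in Experiment 2. Its efferocytic libraries were both above the non-efferocytic ones, with a log2 fold change of 0.46 (SE 0.10, adjusted p = 0.0079), or 0.27 without the efferocytic library of Experiment 1. Atg101, which binds and steadies Atg13, did not pass the test (-0.03, adjusted p = 0.75). In the complex as a whole 1 of 5 genes was higher and 3 were lower on the TMM scale, with a median of -0.27. Of all genes 19.9% were higher and 19% lower on that scale. Per cell 2 of the 5 were higher, none was lower and the median was 0.35. Of all genes 49.9% were higher per cell, with a median of 0.60.

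The class III PI3-kinase complex makes the lipid that marks the autophagosome and the phagosome. Its autophagy-specific subunit, Atg14, stood at 20.6 and 20.1 CPM in non-efferocytic and at 14.1 and 13.1 CPM in efferocytic macrophages, a clear separation in both experiments. The log2 fold change was -0.47 (SE 0.09, adjusted p = 0.0039) on the TMM scale and 0.14 per cell (adjusted p = 0.65). Uvrag, the subunit that takes the place of Atg14 in the endosomal form of the complex and that LC3-associated phagocytosis uses, was at -0.19 and did not pass (adjusted p = 0.0995). The subunits common to both forms, Becn1, the catalytic Pik3c3 and the scaffold Pik3r4, did not pass either, at 0.10, -0.06 and 0.01. In CPM, without TMM, Becn1 differed in sign between the experiments, from 48.5 to 48.0 CPM in Experiment 1 and from 49.8 to 50.1 CPM in Experiment 2.

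Among the genes of membrane supply, Vmp1 was higher and Atg2a, the lipid transfer protein, was lower. Vmp1 rose from 42.9 to 66.2 CPM in Experiment 1 and from 59.5 to 71.8 CPM in Experiment 2. The difference was larger in Experiment 1, the 2 groups did not overlap, and the log2 fold change was 0.55 (SE 0.11, adjusted p = 0.0055), or 0.33 without the non-efferocytic library of Experiment 1. The Vmp1 gene (chr11:86583865-86683836) contains Mir21a on the same strand, so reads of the microRNA's primary transcript may be counted with it. Atg2a was at -0.38 on the TMM scale and at 0.24 per cell, where it did not pass the test, and was at -0.19 on the TMM scale without the efferocytic library of Experiment 2. Wipi1 and Wipi2, which read the PI3-kinase lipid, were at -0.25 (adjusted p = 0.054) and -0.19 (adjusted p = 0.084). Atg9a, the scramblase of the vesicles that seed the membrane, was at 0.12 on the TMM scale. Its log2 CPM ratios had opposite signs in the 2 experiments, at -0.05 and 0.08.

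The ATG8 family, whose proteins are attached to the membrane, did not move as one, and 1 LC3 gene and 1 GABARAP gene were lower. Map1lc3a fell from 82.4 to 63.4 CPM in Experiment 1 and from 76.0 to 48.7 CPM in Experiment 2 (log2 fold change -0.40, SE 0.10, adjusted p = 0.014). Gabarapl1 fell from 130.4 to 103.4 CPM and from 125.1 to 82.8 CPM (-0.36, SE 0.10, adjusted p = 0.025). For both genes the 2 efferocytic libraries lay below the non-efferocytic ones, and the one of Experiment 2 was the lowest. Without that library the fold changes were -0.17 for Map1lc3a and -0.16 for Gabarapl1, and without the efferocytic library of Experiment 1 they were -0.63 and -0.55. Map1lc3b, which encodes the LC3B protein that most assays of autophagy follow, stood at 403 and 433 CPM in non-efferocytic and at 371 and 332 CPM in efferocytic macrophages (-0.14, SE 0.12, adjusted p = 0.35). Without the efferocytic library of Experiment 2 it was at -0.02, and without that of Experiment 1 at -0.26. Gabarap, the most abundant of the 34 genes in UMIs, stood at 1178 and 1279 CPM in non-efferocytic and at 1357 and 1432 CPM in efferocytic macrophages (0.29, SE 0.12, adjusted p = 0.098). Its groups did not overlap, yet the test was not passed with edgeR, while DESeq2 called it (0.31, adjusted p = 0.017). Gabarapl2 went from 143.6 to 156.1 CPM in Experiment 1 and from 159.2 to 148.7 CPM in Experiment 2, opposite ways (0.12, SE 0.10, adjusted p = 0.38). Neither Map1lc3a nor Gabarapl1 was called without experiment as a block (adjusted p = 0.14 and 0.15) or with 10% free RNA removed (0.060 and 0.081). On the TMM scale 0 of 5 members were higher with edgeR (1, Gabarap, at an unadjusted p of 0.048) and 2 lower, where 19.9% and 19% of all genes were. On library totals 0 were higher and 3 lower, Map1lc3b (-0.25) being the third, where 13.3% and 26.7% of all genes were. Per cell 3 were higher, Map1lc3b, Gabarap and Gabarapl2, and 0 lower, where 49.9% and 4.23% of all genes were.

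The conjugation enzymes had small fold changes, 6 of the 7 above 0. Atg3, the E2-like enzyme that hands LC3 to the lipid, was at 0.23, Atg5 at 0.25 and Atg12, the ubiquitin-like partner of Atg5, at 0.23. These 3 of the 7 passed the test and 0 were called lower, where 19.9% of all genes were higher and 19% lower. Atg7, the E1-like enzyme, was at 0.18 (adjusted p = 0.085), Atg10, the E2-like enzyme of Atg12, at 0.22 (adjusted p = 0.072) and Atg16l1, which places the Atg5 and Atg12 conjugate on the membrane, at 0.16 (adjusted p = 0.20). Atg4b, the protease that trims LC3 before conjugation and frees it afterwards, was at -0.05. The median of the 7 was 0.22 against -0.02 for all genes, and Atg16l1 alone among them changed sign in CPM between the experiments. None of the 3 calls was kept with library totals, where they fell to 0.12 to 0.14, or with DESeq2, and 6 of the 7 were called higher per cell, as were 49.9% of all genes. In cells of 10000 to 20000 UMIs 0 of the 7 were called, and Atg3 was at 0.04 (adjusted p = 0.78), Atg5 at 0.14 and Atg12 at 0.23. Atg3 was called under 5 of the 16 alternatives that kept the 4 libraries.

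The receptors that hold cargo to ATG8 proteins gave 2 calls of 4, both higher, where 19.9% of all genes were higher and 19% lower. Optn, optineurin, stood at 6.87 and 6.95 CPM in non-efferocytic and at 8.67 and 9.75 CPM in efferocytic macrophages, the lowest mean level among the 34 genes. The 2 groups were well apart, with a log2 fold change of 0.52 (SE 0.10, adjusted p = 0.0054). Tax1bp1, a receptor for ubiquitin-tagged aggregates, was at 0.28 (adjusted p = 0.039), and was not called with library totals (0.17, adjusted p = 0.16). Sqstm1, which encodes p62 and is both an autophagy receptor and a target of NRF2, stood at 346 and 359.9 CPM in non-efferocytic and at 331 and 298 CPM in efferocytic macrophages. The efferocytic values were the lower in both experiments, and the log2 fold change of -0.06 (SE 0.11, adjusted p = 0.68) did not pass the test. Counted per cell Sqstm1 was higher, at 0.56 (adjusted p = 0.0058). Nbr1, a receptor of the same domain plan, was at -0.11 and did not pass the test.

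At the fusion step, Rab7 and Stx17 went opposite ways on the TMM scale. Rab7, the GTPase of late endosomes and phagosomes, rose from 221.7 to 276 CPM in Experiment 1 and from 205.8 to 309.8 CPM in Experiment 2. Both efferocytic libraries were above both others, with the wider gap in Experiment 2 (log2 fold change 0.56, SE 0.10, adjusted p = 0.0037). A processed copy, Rab7-ps1, is annotated in GENCODE vM21, and how reads shared with it were counted was not checked. Rab5a has an annotated copy too, Rab5a-ps. Stx17, the syntaxin of the closed autophagosome, was at -0.27 (adjusted p = 0.033) on the TMM scale and at 0.35 per cell. Rab5a, the GTPase of early endosomes, was at 0.14 (adjusted p = 0.16). Rab7 was called higher under all 16 alternatives that kept the 4 libraries, and Optn under all 15 in which it was tested.

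The direction of the 8 lower genes depended on the scale. Ulk1 stood at 0.416 UMIs per cell in both libraries of Experiment 1 and at 0.307 and 0.313 in the non-efferocytic and efferocytic libraries of Experiment 2. Efferocytic cells as a whole held 1.53 and 1.79 times as many UMIs per cell, and the median of the 34 genes was 1.42 and 1.69 times. Ulk1 had the lowest ratio of the 34 in both experiments, at 0.999 and 1.02, followed by Atg14 at 1.05 in Experiment 1 and Map1lc3a at 1.15 in Experiment 2. At the other end stood Vmp1, at 2.36 and 2.16 times, Atg13, at 2.12 and 2.09 times, Rab7, at 1.90 and 2.69 times, and Optn, at 1.93 and 2.51 times. These means per cell divide by every barcode kept as a cell. Barcodes of under 5000 UMIs were 1099 and 3404 of them in the non-efferocytic and 544 and 505 in the efferocytic libraries. Per-cell values without those barcodes were not computed. Whether larger cells, more complete capture, deeper sequencing or RNA of engulfed cells sets the number of UMIs per cell cannot be told apart here.

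**Figure D3:**
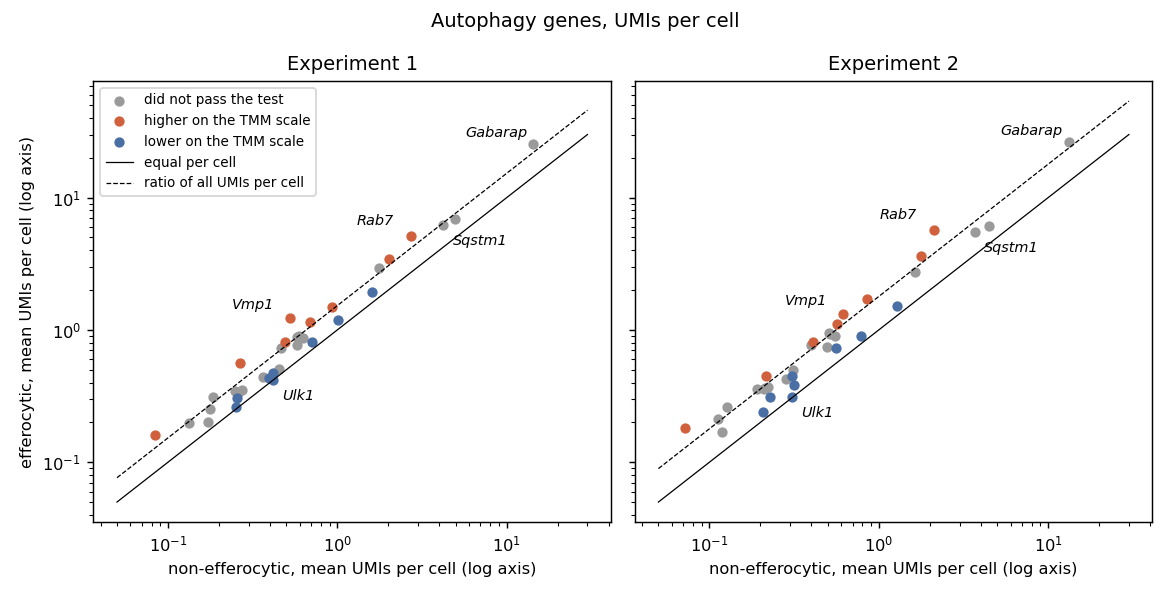
Mean UMIs per cell of each of the 34 genes in efferocytic (vertical) against non-efferocytic (horizontal) macrophages on log axes, 1 panel per experiment. The solid line marks equal numbers per cell and the dashed line the ratio of all UMIs, 1.53 and 1.79; Ulk1 lies on the solid line in both panels and Rab7 and Vmp1 lie above the dashed line.

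The number of UMIs in a cell moved with some of these genes within a library, so cells of like depth were compared. In cells of 10000 to 20000 UMIs, Ulk1 stood at 33.3 and 27.6 CPM in non-efferocytic and at 26.4 and 20.3 CPM in efferocytic macrophages of Experiments 1 and 2, and it still passed the test at a smaller log2 fold change of -0.39. In the deepest cells, of 20000 UMIs or more, it was at 27.1 and 22.8 CPM against 19.5 and 14.1 CPM. Ulk1 was lower in the efferocytic library in all 4 depth classes of both experiments, and its level was also lower in deep than in shallow cells of each library. Rab7, at 215.9 and 202.9 CPM against 282 and 316 CPM in cells of 10000 to 20000 UMIs, was higher in all 4 classes of both experiments. Vmp1 was higher in all 4 classes too, but by least in the deepest cells. Its log2 ratio was 1.22 and 0.70 in cells of 1000 to 5000 UMIs of Experiments 1 and 2, and 0.33 and 0.10 in the deepest. Of the 16 genes called, 13 kept their direction in all 4 classes of both experiments, with the exceptions of Tax1bp1 and Atg13 (3 classes each) and Atg3 (2 classes). The classes are parts of the cells that gave the calls, so this count is not independent of them. The share over all genes was not computed. In the cells of 10000 to 20000 UMIs, 4 of the 34 genes were called higher and 6 lower, where 16.6% and 15.9% of all genes were. Of the 16 genes called in all cells 9 were called there too, Wipi2 was added, and 7 were not called. Those were Atg3, Atg5 and Atg12 (above), Tax1bp1 at 0.16, Ulk2 at -0.16, Atg2a at -0.24 and Stx17 at -0.25.

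**Figure D4:**
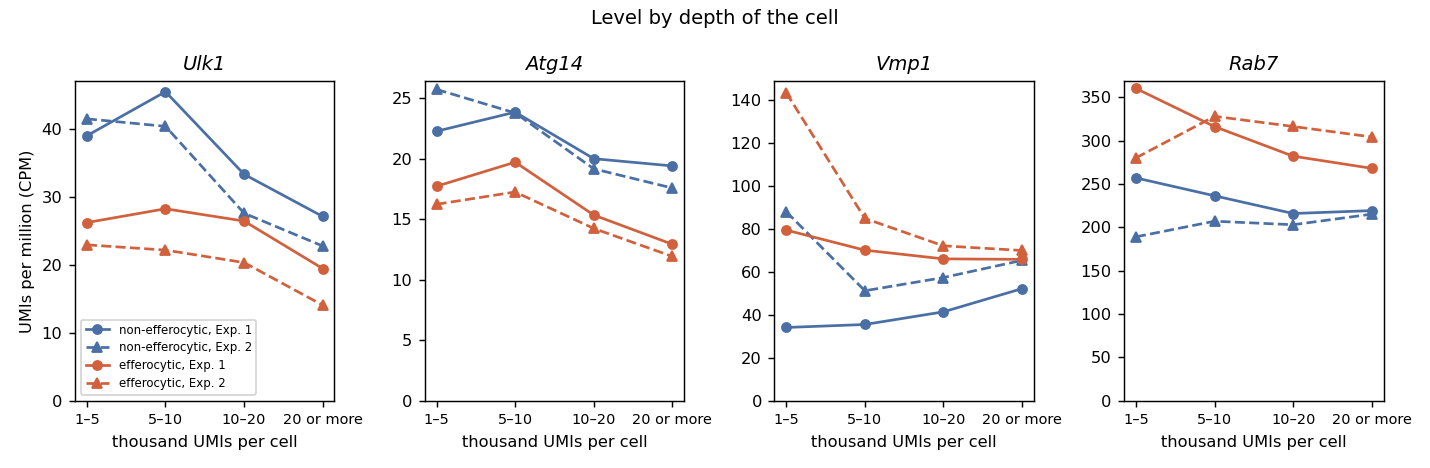
Level of Ulk1, Atg14, Vmp1 and Rab7 in CPM (vertical axis from 0) by the number of UMIs in the cell, with 1 line per library. Ulk1 and Atg14 are lower and Vmp1 and Rab7 higher in the efferocytic library of each experiment in every depth class. The Vmp1 difference is smallest in the deepest cells. Ulk1 ranges from 14.1 CPM in deep efferocytic cells to 45.5 CPM in non-efferocytic cells.

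The same 4 genes kept their direction on the TMM scale in cells without markers of other programmes. Only the cells without those markers are given. They are part of the cells tested above, so the result is not independent of the calls. Cells with a UMI of an MHC class II gene made up 18.4% and 24.3% of non-efferocytic and 3.87% and 4.38% of efferocytic cells. Among cells without one, Ulk1 was at 33.98 and 30.3 CPM in non-efferocytic and at 22.5 and 17.1 CPM in efferocytic libraries, and Rab7 at 226.4 and 209.1 against 277.6 and 311.3 CPM. Among cells without a UMI of the cycling genes Mki67, Top2a and Hist1h2ap, Ulk1 was at 33.96 and 30.7 against 22.8 and 17.2 CPM. Cells without any neutrophil, fibroblast or epithelial marker gave 5 genes higher and 10 lower, where 20.9% and 20.5% of all genes were; Ulk1, Atg14, Rab7, Vmp1, Optn and Atg13 were all called in them.

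Sqstm1 varied more from cell to cell than the other abundant genes. Each cell was thinned to 5000 UMIs, which left out 1099 and 3404 non-efferocytic and 544 and 505 efferocytic cells of lower depth. The variance of Sqstm1 over cells was then 1.87 to 1.99 times its mean in the 4 libraries, where counting alone gives a ratio near 1. For the 5 other genes with a mean of at least 0.5 UMIs in every library, Tax1bp1, Map1lc3b, Gabarap, Gabarapl2 and Rab7, the ratio was 1.00 to 1.22. In the thinned cells 76.2% and 75.5% of non-efferocytic and 75.2% and 72.6% of efferocytic cells had a Sqstm1 UMI, and without thinning 88.6% and 78.9% against 93.1% and 92.7%. The mean was 1.72 and 1.77 UMIs in non-efferocytic and 1.70 and 1.54 in efferocytic cells. The spread was thus a feature of both groups, and the order of the unthinned shares went with depth.

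**Figure D5:**
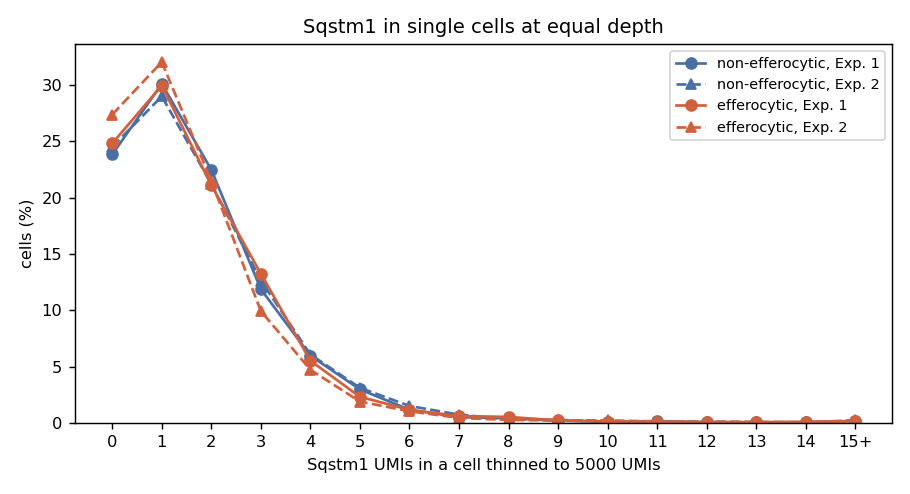
Share of cells (%) by the number of Sqstm1 UMIs after each cell was thinned to 5000 UMIs, with 1 line per library and the last class holding 15 or more. The 4 lines lie close together, with 23.8% to 27.4% of cells at 0 and a tail of cells above 6 UMIs in every library.

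Of 6 reported partners by which LC3-associated phagocytosis differs from autophagy, 2 cytosolic subunits of the NOX2 oxidase were lower on the TMM scale and 0 were higher with edgeR, also at an unadjusted p under 0.05, while DESeq2 called Cyba higher. On the TMM scale edgeR called 19% of all genes lower and 19.9% higher. On library totals 4 of the 6 were lower, Ncf1, Ncf4, Cybb and Rubcn, and 0 were higher, where 26.7% and 13.3% of all genes were. Counted per cell 2 of the 6 were higher and 0 lower, where 49.9% and 4.23% of all genes were. Ncf1 (p47phox) stood at 170.4 and 150.4 CPM in non-efferocytic and at 120.7 and 106.3 CPM in efferocytic macrophages (log2 fold change -0.39, SE 0.09, adjusted p = 0.0089). Ncf4 (p40phox) was at -0.26 (adjusted p = 0.04999, and 0.12 with DESeq2). Per cell these genes were at 0.23 and 0.36, and neither passed the test. Without experiment as a block 0 of the 6 partners were called lower, where 7.74% of all genes were. With 10% free RNA removed 1 was, where 8.16% of all genes were. The membrane subunits Cybb (gp91phox) and Cyba (p22phox) were at -0.35 (adjusted p = 0.071, and 0.038 with DESeq2) and 0.33 (adjusted p = 0.15, and 0.025 with DESeq2), the GTPase Rac2 at -0.10 (adjusted p = 0.41), and Rubcn, which encodes Rubicon, at -0.20 (adjusted p = 0.12). Neutrophils express these oxidase genes too, and all 10 neutrophil markers were detected in every library, with sums of 3047 and 3340 CPM in non-efferocytic against 953 and 705 CPM in efferocytic libraries. In the cells without a UMI of the neutrophil, fibroblast or epithelial markers, 3 of the 6 partners were called lower, Ncf1 and Ncf4 among them. Of all genes 20.5% were lower there. Those cells were 74.3% and 43.7% of non-efferocytic and 73.4% and 79.1% of efferocytic cells. Whether the share of neutrophils bears on the levels of these genes was not tested. Ncf1 was at -0.26 without the efferocytic library of Experiment 2.

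Of 22 further core autophagy genes 6 were higher and 3 lower on the TMM scale, with a median of 0.10, where 19.9% and 19% of all genes were. On library totals 5 were higher and 3 lower (median -0.0085), where 13.3% and 26.7% of all genes were. Per cell 16 were higher and 0 lower (median 0.72), where 49.9% and 4.23% of all genes were. Tecpr1, a lysosomal protein that binds the Atg5 and Atg12 conjugate, rose from 72.9 to 123.3 CPM in Experiment 1 and from 72.8 to 127.2 CPM in Experiment 2 (log2 fold change 0.89, SE 0.08, adjusted p = 2.3e-04), more than any of the 34. Ykt6, a fusion SNARE of the autophagosome, was at 0.43 (adjusted p = 0.0035). Wdr45, the WIPI protein also called WIPI4, was at -0.54 (adjusted p = 0.0059) on the TMM scale and at 0.07 per cell. Leaving out the efferocytic library of Experiment 2 gave -0.30 on the TMM scale. Of 10 further selective receptors 4 were higher and 1 lower on the TMM scale. On library totals 3 were higher and 1 lower, and per cell 8 and 0, beside the same shares of all genes. Tollip, an adaptor that binds ubiquitin and LC3, was at 0.60 and Bnip3, a receptor for mitochondria and a target of hypoxia signalling, at 0.51, while Calcoco1, a receptor for endoplasmic reticulum, was at -0.40 on the TMM scale (-0.25 without that library) and 0.22 per cell.

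Of 25 genes of the MiT factors and of mTORC1 control, 5 were higher and 7 lower on the TMM scale. On library totals 3 were higher and 7 lower, and per cell 17 and 0. The kinase complex mTORC1 holds autophagy back when nutrients are plentiful. Rragd, a GTPase that brings mTORC1 to the lysosome, rose from 11.8 to 20.8 CPM and from 14.6 to 24.98 CPM (log2 fold change 0.90, SE 0.08, adjusted p = 2.4e-04). Sesn2 and Sesn1, the sestrins, which restrain mTORC1, were at -0.87 and -0.62 (adjusted p = 4.7e-04 and 8.1e-04) on the TMM scale; per cell Sesn2 was at -0.25 and Sesn1 at 0.0021, and neither passed. Tfeb, Tfe3 and Mitf, named after their values were seen because their element was searched above, were at -0.29, -0.28 and -0.44 on the TMM scale, and all 3 passed the test; per cell they were at 0.33, 0.34 and 0.18 and did not pass. Of 13 genes of NRF2 and its targets 1 was higher and 3 were lower on the TMM scale. On library totals 2 were higher and 5 lower, and per cell 7 and 0. The values that follow are on the TMM scale unless marked per cell. Hmox1, heme oxygenase 1, was at 0.42 (adjusted p = 0.013), Osgin1, an oxidative stress gene, at -0.74 (adjusted p = 8.9e-04) and Slc7a11, the cystine transporter, at -0.41 (adjusted p = 0.035), and Slc7a11 rested on the non-efferocytic library of Experiment 1, without which it was at 0.01; per cell it was at 0.20 and did not pass. Nfe2l2, which encodes NRF2, was at 0.02 (adjusted p = 0.86). The counts of all these lists stand beside shares of all genes of 19.9% higher and 19% lower on the TMM scale. Those shares were 13.3% and 26.7% on library totals and 49.9% and 4.23% per cell.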

How the data were processed

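The authors deposited whole-number UMI counts per gene and barcode for every barcode, empty droplets included, and analysed them with Seurat 3.1. The counts were made on mm10 with Cell Ranger, 3.0.0 per the submitters' processing notes. The file headers give 3.0.0 for Experiment 1 and 3.1.0 for Experiment 2. Reads that map to more than 1 gene are not counted by Cell Ranger. A barcode was kept as a cell if it held 200 genes or more, 1000 UMIs or more and no more than 10% mitochondrial UMIs, and doublets were not called or removed. Sums of UMI counts by library entered the quasi-likelihood test of edgeR 4.0.16 (TMM, filterByExpr as the filter on low counts, experiment as block); p-values were adjusted over all genes by Benjamini-Hochberg and called under 0.05; the test was first checked on simulated data. DESeq2 1.42.0 was an alternative. CPM values in the text are UMIs per 1000000 UMIs in cells, without TMM, so their ratios differ from the log2 fold changes. For small changes the sign can differ. Pik3r4 had log2 CPM ratios of -0.13 and -0.06 in Experiments 1 and 2 and a log2 fold change of 0.01. UMIs mark single molecules at the 3′ end, so levels do not scale with transcript length, though capture may differ between genes. The CPM of the 34 genes in cells rested on 695 UMIs or more per gene and library; those of barcodes outside the cell filter rested on as few as 106 (Optn).

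The labels' experiment number pairs the libraries, and deviations from the group means correlated at 0.80 over 7098 genes. The replicates are separate experiments. With experiment as block, the p-values measure how far the difference between the groups varied between the 2 experiments. That spread was moderated across genes and rests on 2 libraries a group. Positions are from GENCODE vM21 (GRCm38, the build of mm10) and promoters from RefSeq; protein sequences were not used here. The 34 genes, the gene lists and the tests were chosen with earlier results of these data known. Values in every library were given for Sqstm1, the ATG8 family and each other called gene with an absolute log2 fold change of at least 0.4, and elsewhere the fold change; all listed LC3-associated phagocytosis partners were named, except for 1 gene that is not reported here, and of each other list the 3 called genes with the largest change and a mean of at least 1 CPM. Further values beyond this rule were added where a result turned on them. The share of cells with a UMI was thinned to 5000 UMIs per cell by hypergeometric draws. Alternatives changed the scaling, tool, block, gene filter, cell filter, cell subsets, free RNA and the libraries used; removing barcodes shared within an experiment was added after seeing the data.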

Additional observations from a re-analysis of the deposited data

Results flagged for a closer look

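Barcodes outside the cell filter were empty droplets, fragments, cells with under 1000 UMIs and barcodes with over 10% mitochondrial UMIs. They enter no comparison above, apart from the removal of 10% free RNA, whose profile came from barcodes of under 100 UMIs. They held 5 of the 34 genes at a higher level in both efferocytic than in both non-efferocytic libraries, or 14.7%, where 18.1% of all genes tested were. Rab7 was at 226.2 and 254.2 CPM there in efferocytic and at 168.1 and 185.3 CPM in non-efferocytic libraries. Atg13 was at 25.5 and 19.9 CPM against 16.4 and 17.4 CPM. Optn was at 7.77 and 7.52 CPM against 6.65 and 7.30 CPM, Gabarap at 1197 and 1247 CPM against 1125 and 1149 CPM, and Atg10 at 15.8 and 15.2 CPM against 14.4 and 15.1 CPM. The closest pair of values, for Atg10, was 15.2 against 15.1 CPM. In the same barcodes 14 of the 34 genes (41.2%, where 25.3% of all genes tested were) were lower in both efferocytic libraries, the 8 called lower in cells among them. Ulk1 was at 17.3 and 10.5 CPM in efferocytic and at 19.8 and 19.7 CPM in non-efferocytic libraries. Optn rested on 106 to 291 UMIs per library there. Barcodes of under 100 UMIs alone held Vmp1 at 56.0 and 109 CPM in non-efferocytic libraries, against 42.9 and 59.5 CPM in cells. In efferocytic libraries Vmp1 was at 70.0 and 110 CPM there, against 66.2 and 71.8 CPM in cells. These values were not tested. They come from the same 4 libraries as the cells, so they are not independent of the calls in cells.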

How the results depend on the processing

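The counts of 8 genes higher and 8 lower moved with several settings, and each pair of counts is followed by the shares of all genes called higher and lower. Without the replicate block, the pairing by experiment, 2 were higher and 1 lower (9.27% and 7.74%). With library totals 4 were higher and 12 lower (13.3% and 26.7%), and scaled to cells 20 and 0 (49.9% and 4.23%). A floor of 10 CPM on a gene's mean gave 3 higher and 11 lower of 33 (20.8% and 21.9%), cells of at least 5000 UMIs 5 and 8 (19.0% and 18.4%), cells of 10000 to 20000 UMIs 4 and 6 (16.6% and 15.9%), cells without neutrophil, fibroblast or epithelial markers 5 and 10 (20.9% and 20.5%), and removal of 10% free RNA 3 and 3 (10.5% and 8.16%). Leaving out 1 library gave 0 to 2 higher and 0 to 6 lower (0% to 11.5% and 0% to 8.86%); the groups then hold 1 and 2 libraries with no block, and the lone library is assumed to vary like the others. DESeq2 gave 6 and 6 (16.5% and 10.8%), and removal of shared barcodes 7 and 8 (19.4% and 18.8%). Scaled to cells, these genes named above, each called on the TMM or the per-cell scale, turned positive: Sqstm1 0.56, Map1lc3a 0.21, Map1lc3b 0.47, Gabarapl1 0.26, Ulk1 0.013, Ulk2 0.35, Rb1cc1 0.30, Atg101 0.59, Atg14 0.14, Atg2a 0.24, Stx17 0.35, Ncf1 0.23, Ncf4 0.36, Rac2 0.52, Wdr45 0.074, Calcoco1 0.22, Sesn1 0.0021 and Slc7a11 0.20, by construction of a scaling that keeps the larger number of UMIs per cell. So did Tfeb, Tfe3 and Mitf, and Nbr1, Atg4b, Pik3c3, Uvrag, Wipi1, Wipi2, Rubcn and Cybb, called on neither scale, while Sesn2 and Osgin1 stayed below 0, at -0.25 and -0.12. Leaving out 1 library, Map1lc3a ranged from -0.63 to -0.17, Gabarapl1 from -0.55 to -0.16, Atg2a from -0.56 to -0.19 and Ulk1 from -0.84 to -0.37 (without the efferocytic library of Experiment 1 and of Experiment 2), Atg13 from 0.27 to 0.65 (the same) and Vmp1 from 0.33 to 0.80 (without the non-efferocytic library of Experiment 1 and of Experiment 2). Slc7a11 ranged from -0.79 without the non-efferocytic library of Experiment 2 to 0.0057 without that of Experiment 1. Apart from the scaling to cells, all 16 called genes kept their sign under every alternative with 4 libraries. Genes near 10 CPM rest on the fewest UMIs (695 for Optn in the shallowest library). The causes of the other moves were not tested.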
